A study of Homo sapiens with 9 samples.

Results

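The 8 enzymes that convert lanosterol to cholesterol were followed in HCCLM3 cells, a human liver cancer line (hepatocellular carcinoma) labelled as highly metastatic, cultured with or without quercetin, a plant flavonol. The genes were CYP51A1, TM7SF2, MSMO1, NSDHL, HSD17B7, EBP, SC5D and DHCR7, taken by symbol from a table of 17492 genes. All 8 were in the table and all 8 passed the filter on low counts, with 12832 genes tested in all. Wild-type cells received the vehicle DMSO (control), quercetin at 50 µM or quercetin at 100 µM, with 3 samples in each group and 9 in all. How long the cells were treated is not stated in the sources used here. Whether the replicates were grown separately is not stated in the labels, and p-values therefore reflect only the spread among these samples, which may be technical.

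Lanosterol is the first sterol of the pathway, and the enzymes listed here strip its extra methyl groups and move or reduce its double bonds until cholesterol is left. They sit in the membrane of the endoplasmic reticulum, and the liver is one of the main organs in which the pathway runs. Transcription of most of its genes is driven by the sterol regulatory element-binding proteins, the products of SREBF1 and SREBF2, which act at promoters together with NF-Y and with factors that bind GC boxes. When sterols are scarce these proteins are released from the endoplasmic reticulum and the genes of the pathway are usually raised together.

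In the order of the reactions, CYP51A1 (chr7:92112151-92134803, minus strand) removes the first methyl group of lanosterol. TM7SF2 (chr11:65111845-65116384, plus strand) reduces the double bond that this leaves, a reaction that the nuclear envelope protein LBR also catalyses. MSMO1 (chr4:165327623-165343160, plus strand) oxidises the remaining pair of methyl groups. NSDHL (chrX:152830967-152869729, plus strand) removes the resulting carboxyl group, and HSD17B7 (chr1:162790702-162812817, plus strand) reduces the ketone that follows. EBP (chrX:48521158-48528716, plus strand) shifts a ring double bond, SC5D (chr11:121292453-121308694, plus strand) adds one, and DHCR7 (chr11:71428193-71452868, minus strand) reduces the last one to give cholesterol. Positions and strands are those of GENCODE 29 on GRCh38, in which all 8 are protein-coding genes with 5 to 10 exons in the longest coding transcript.

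The promoters of the genes are shown because sterol control acts there, and because enzymes with and without a change in these data can be compared side by side. The 250 bases before each RefSeq transcript start (GRCh38.p14) were searched on both strands for CCAAT, bound by NF-Y, for GGGCGG, the GC box, for CACGTG, an E-box, and for TCACNCCAC, the sterol regulatory element, exactly and with up to 1 mismatch. Capitals below mark the matches (a match on the other strand reads ATTGG or CCGCCC), and bases of the window that lie in GENCODE exons of the gene are left out, so the CYP51A1 stretch is flanked by exon bases on either side. DHCR7 and HSD17B7 are the genes that passed the test for quercetin, and NSDHL and CYP51A1 are a pair that did not. TM7SF2, MSMO1, EBP and SC5D did not pass either, and the windows of each hold both CCAAT and a GC box. The pair shown therefore does not stand for all enzymes without a call, and a link between motifs and change was not tested. The stretches are chr11:71448436-71448643 (minus strand) for DHCR7, chr1:162790452-162790701 (plus strand) for HSD17B7, chrX:152830813-152830966 (plus strand) for NSDHL and chr7:92134531-92134665 (minus strand) for CYP51A1.
DHCR7: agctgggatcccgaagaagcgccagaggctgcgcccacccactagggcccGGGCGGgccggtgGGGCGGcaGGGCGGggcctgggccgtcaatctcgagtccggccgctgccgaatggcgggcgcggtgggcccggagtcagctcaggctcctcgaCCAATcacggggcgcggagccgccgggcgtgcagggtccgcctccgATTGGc
HSD17B7: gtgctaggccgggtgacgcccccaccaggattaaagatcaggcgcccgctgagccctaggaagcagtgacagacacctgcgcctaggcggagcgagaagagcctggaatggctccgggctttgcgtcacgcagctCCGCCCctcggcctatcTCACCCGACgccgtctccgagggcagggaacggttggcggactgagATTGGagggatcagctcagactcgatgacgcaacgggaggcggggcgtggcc
NSDHL: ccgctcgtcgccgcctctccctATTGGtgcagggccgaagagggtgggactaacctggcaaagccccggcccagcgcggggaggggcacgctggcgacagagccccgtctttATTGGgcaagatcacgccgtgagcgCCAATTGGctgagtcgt
CYP51A1: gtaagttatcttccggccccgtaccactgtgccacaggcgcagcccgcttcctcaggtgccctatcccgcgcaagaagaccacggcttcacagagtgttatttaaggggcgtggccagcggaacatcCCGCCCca

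CCAAT was found in the windows of 7 of the 8 genes, all but CYP51A1, against 32% of 35116 RefSeq windows of the same length. The windows of CYP51A1, EBP, SC5D and DHCR7 lie inside the GENCODE limits of these genes. That of EBP and the first of SC5D lie wholly in GENCODE exons (250 bases). The bases before the GENCODE starts of these genes were not searched, so a motif missing from the CYP51A1 window may lie there. A GC box was found in the windows of 7 of 8, all but NSDHL, against 42.6% of windows. In related lists it was found for 7 of 7 mevalonate genes with a window, 5 of 5 electron donor genes and 10 of 10 sterol use genes. It was found for 7 of 9 genes of sterol sensing and LDL uptake and 2 of 4 other late sterol genes. CCAAT was found for 6 of 7, 3 of 5, 4 of 10, 4 of 9 and 2 of 4 genes of these lists. No window of the 8 held the exact sterol regulatory element, which 0.883% of windows hold. With up to 1 mismatch it was found before MSMO1, HSD17B7, SC5D and DHCR7, 4 of 8, against 20.9% of windows. The match before HSD17B7 read TCACCCGAC, from 98 to 90 bases before the start, and no match overlapped it. CACGTG was found before SC5D only, against 6.34% of windows. SC5D and DHCR7 have 2 windows each and were counted once if either held the motif, while the shares of all windows count each window singly. The near match of DHCR7 lies in its other window. NSDHL, which did not pass the test at either dose, held 5 CCAAT matches, of which 4 are in the stretch shown and 2 on opposite strands overlap. DHCR7 held 2 CCAAT matches and 3 GC boxes in its stretch, and CYP51A1 held 1 GC box. A match is a description of the letters, not of a bound site.

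Total expected counts ran from 20061136 to 21599805 per library. Each of 2 libraries was unlike its group. The chi-square per gene was 3.56 within the other controls but 27.4 and 27.6 when control replicate 1 was compared with them, and 5.04 within the other libraries at 100 µM but 83.9 and 86.1 for replicate 3. Of the markers of the cell type, the keratins KRT8 and KRT18 were abundant (2923 to 4497 TPM and 1008 to 2203 TPM) and HNF4A was present, with group means of 10.8 to 18.9 TPM, lower at 50 µM (edgeR adjusted p = 0.032). Of the 11 tested genes of this list 3 were higher (5.28% of all genes tested) and 3 lower (6.31%) at 50 µM. At 100 µM 4 were higher (10.7%) and 1 lower (10.3%). The plasma protein genes ALB, TF and FGB were low with DMSO and rose at both doses, with group means of 1.19, 8.12 and 9.41 TPM for ALB, 2.66, 13.4 and 17.2 TPM for TF and 4.01, 27.9 and 29.7 TPM for FGB with DMSO, 50 µM and 100 µM (edgeR adjusted p up to 0.0156). APOA1, APOB and SERPINA1 had group means of at most 1.31 TPM, and APOB fell at both doses, with log2 fold changes of -2.31 and -1.87 (edgeR adjusted p = 0.00082 and 0.00035). GPC3 was not among the rows used. Of the defining markers of other cells, PTPRC, CD3E, COL1A1, COL1A2, COL3A1 and CDH5 had group means of at most 1.01 TPM. CD68 and LUM were higher, at 162 to 376 TPM and 54.6 to 106 TPM. The endothelial marker PECAM1 fell from 18.01 TPM with DMSO to 9.72 and 10.0 TPM (log2 fold changes -0.80 and -0.77; edgeR adjusted p = 0.0029 and 0.00086), and the summed endothelial list was 19.9 to 22.4 TPM with DMSO, 10.3 to 12.2 with 50 µM and 10.97 to 14.2 with 100 µM. The stromal marker DCN, at 3.22 TPM with DMSO, was lower at 50 µM (1.23 TPM, edgeR adjusted p = 0.0075) but not at 100 µM (4.19 TPM, log2 fold change 0.48, edgeR adjusted p = 0.085). DCN was higher at 100 than at 50 µM (1.76, edgeR adjusted p = 0.0024). The summed fibroblast list, nearly all of it LUM, was 57.7 to 87.4, 66.2 to 73.6 and 63.6 to 110 TPM in the 3 groups. The summed leukocyte list, nearly all of it CD68, was 185 to 257 TPM with DMSO, 164 to 181 TPM with 50 µM and 254 to 377 TPM with 100 µM, and the part of these markers in the results was not tested. Levels are relative within a library, and in bulk RNA fewer cells of a type and less RNA per cell cannot be told apart.

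These libraries were unlike the rest in the enzymes too. Control replicate 1 was below both other controls in 7 of the 8, all but TM7SF2, while 43.1% of all genes tested were below in it. Its level was 0.69 (NSDHL) to 0.86 (DHCR7) times the mean of the other controls in those 7, and 1.42 times in TM7SF2. Replicate 3 at 100 µM was above both others of its group in 6 of the 8, all but NSDHL and EBP, against 44.8% of all genes. Its level was 1.97 times the mean of the others in MSMO1, 1.87 times in TM7SF2 and 1.52 times in CYP51A1, but 1.06 times in DHCR7. Results are therefore given with all libraries and, in turn, without both of these. The 2 libraries were picked by their values in these same data, so a smaller spread without them follows from the choice. Adjusted p-values without both are therefore likely too small and describe only the dependence on these libraries.

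**Figure D1:**
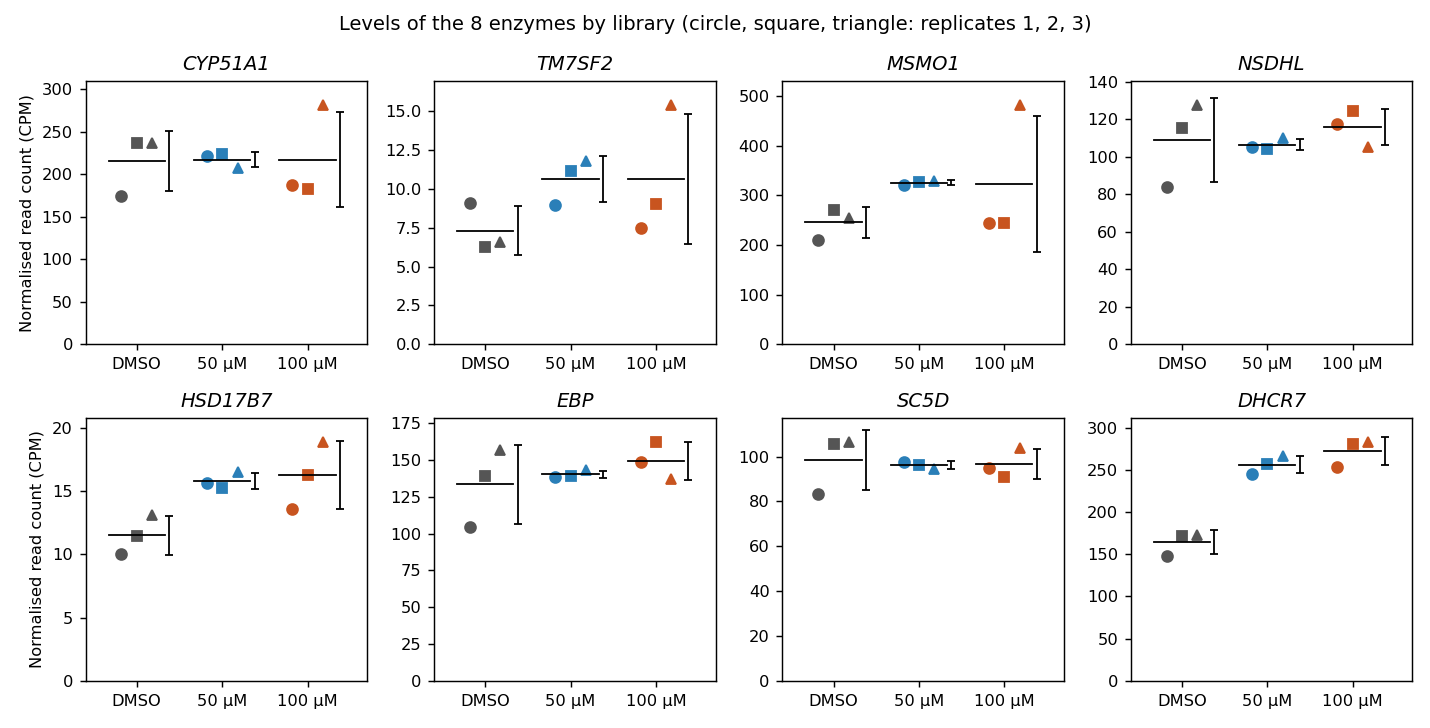
Normalised read counts (CPM, TMM-scaled, linear axis from 0) of the 8 enzymes in each of the 9 libraries; circles, squares and triangles are replicates 1, 2 and 3, horizontal lines are group means and vertical bars are 1 SD. DHCR7 and HSD17B7 lie above every control at both doses, and 100 µM replicate 3 lies far above its group in MSMO1, TM7SF2 and CYP51A1.

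DHCR7, the last enzyme of the route, rose at both doses of quercetin, and HSD17B7, the ketone reductase, rose at 100 µM. At 50 µM against control 1 of the 8 enzymes was higher (5.28% of all genes tested were) and 0 were lower (6.31% of all genes). At 100 µM 2 of 8 were higher (10.7% of all genes) and 0 lower (10.3% of all genes). These are calls at an adjusted p below 0.05 in edgeR (quasi-likelihood F test, Benjamini-Hochberg over all 12832 genes), and DESeq2 and limma also called 0 lower. At an unadjusted edgeR p below 0.05, 2 of 8 passed at 50 µM (32.2% of all genes) and 2 of 8 at 100 µM (36.6%), DHCR7 and HSD17B7 each time, both higher. The median log2 fold change of the 8 was 0.24 at 50 µM and 0.28 at 100 µM, with a median over all genes of 0.0033 and 0.00087. Groups did not overlap, with every treated library above every control, for 3 of 8 at 50 µM (DHCR7, MSMO1 and HSD17B7; 24.4% of all genes) and 2 of 8 at 100 µM (DHCR7 and HSD17B7; 17.3%). Both doses are set against the same 3 control libraries, so their values are not independent.

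DHCR7 held 148, 171 and 173 CPM in the control libraries. It held 245, 257 and 266 CPM at 50 µM and 253, 281 and 283 CPM at 100 µM. All 6 treated libraries were above all 3 controls, and the doses overlapped. Means were 256 ± 10.3 CPM with 50 µM and 272 ± 17.0 CPM with 100 µM, against 164 ± 14.03 CPM for DMSO (SD, n = 3). The level was 1.56-fold the control at 50 µM (log2 fold change 0.64 ± 0.087, SE; 95% interval 0.45 to 0.84; edgeR adjusted p = 0.0054). It was 1.66-fold at 100 µM (0.73 ± 0.087; 0.54 to 0.93; edgeR adjusted p = 0.00097). DHCR7 had the smallest standard error of the 8 enzymes. It passed the threshold under all 18 alternatives at both doses. Without control replicate 1 and 100 µM replicate 3, the log2 fold changes were 0.57 (edgeR adjusted p = 3.28e-09) and 0.64 (edgeR adjusted p = 2.97e-09). DHCR7 had values of 0.64 (q = 2.43e-11) and 0.73 (q = 5.95e-08) on the same scale in the authors' deposited table.

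HSD17B7 was among the least abundant of the 8, with 220 to 383 expected counts per library. Control libraries held 10.0, 11.5 and 13.1 CPM of it, those at 50 µM 15.7, 15.3 and 16.5, and those at 100 µM 13.6, 16.3 and 18.9. Every treated library was above every control, with the smallest gap, 13.6 against 13.1 CPM, between 100 µM replicate 1 and control replicate 3. The log2 fold change was 0.46 ± 0.143 (SE) at 50 µM (edgeR adjusted p = 0.064) and 0.50 ± 0.143 at 100 µM (edgeR adjusted p = 0.037). The call at 100 µM no longer held when control replicate 1 was left out (edgeR adjusted p = 0.0753), nor without control replicate 2 (0.109), 100 µM replicate 2 (0.0759) or any replicate at 50 µM (0.0615 to 0.0635), nor when only the 2 groups compared were fitted (0.105). Without control replicate 1 and 100 µM replicate 3 HSD17B7 was higher at both doses, by 0.37 (edgeR adjusted p = 0.00297) and 0.29 (edgeR adjusted p = 0.0303). In the authors' deposited table HSD17B7 had a q of 0.0127 at 50 µM and 0.086 at 100 µM, on the other side of the threshold from edgeR at each dose. HSD17B7 has a near-identical relative, the transcribed pseudogene HSD17B7P2, with 98.4% identity over 1033 bases, 86.8% of its longest coding transcript. That symbol is not among the table's rows used here, so reads of the pseudogene may be counted in HSD17B7 and its values are uncertain to that extent.

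MSMO1, the methyl sterol oxidase, did not pass the test at either dose, and its libraries at 100 µM lay far apart. Its levels were 211, 271 and 255 CPM with DMSO and 321, 328 and 329.6 CPM with 50 µM. At 100 µM it held 244, 245 and 483 CPM. The libraries at 50 µM were all above the controls, while replicates 1 and 2 at 100 µM lay within the control range. The log2 fold change was 0.41 ± 0.237 (SE) at 50 µM (edgeR adjusted p = 0.258) and 0.40 ± 0.237 at 100 µM (edgeR adjusted p = 0.25). The value at 100 µM was 0.0027 without 100 µM replicate 3 (edgeR adjusted p = 0.987) and -0.097 when control replicate 1 was left out as well (edgeR adjusted p = 0.183). Without 100 µM replicate 3, MSMO1 rose at 50 µM against control, with a log2 value of 0.42 (edgeR adjusted p = 0.0035), and was lower at 100 than at 50 µM, with a log2 difference of -0.42 (edgeR adjusted p = 0.00879). It also passed at 50 µM when only those 2 groups were fitted (edgeR adjusted p = 0.00993). In the authors' deposited table MSMO1 had a q of 0.00047 at 50 µM and 0.434 at 100 µM.

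TM7SF2, the reductase, was the least abundant of the 8 enzymes, with 129 to 312 expected counts per library, and had the largest standard error. The controls held 9.13, 6.27 and 6.56 CPM, the libraries at 50 µM 8.97, 11.2 and 11.8, and those at 100 µM 7.49, 9.02 and 15.4. Each dose overlapped the control through control replicate 1. The log2 fold change was 0.54 ± 0.267 (SE) at 50 µM (edgeR adjusted p = 0.192) and 0.54 ± 0.267 at 100 µM (edgeR adjusted p = 0.176). Without control replicate 1 and 100 µM replicate 3 it was 0.73 at 50 µM (edgeR adjusted p = 2.52e-05) and 0.37 at 100 µM (edgeR adjusted p = 0.0363). In the authors' deposited table TM7SF2 had a q of 0.0343 at 50 µM and 0.318 at 100 µM. Exons of TM7SF2 overlap exons of VPS51 on the same strand, so the assignment of shared reads is uncertain.

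LBR, which catalyses the same reduction as TM7SF2, was named for that reason and not for its change. Per length it was the more abundant of the pair in every library, with 84.8 to 121 TPM against 8.77 to 19.4 TPM for TM7SF2. The ratio of LBR to TM7SF2 was 8.98, 11.2 and 9.73 with DMSO, 10.1, 7.77 and 7.29 with 50 µM, and 9.3, 6.93 and 4.4 with 100 µM. The range of the control overlapped that of 50 µM and, through replicate 1 (9.3), that of 100 µM. The lowest ratio was in 100 µM replicate 3. LBR itself had a log2 fold change of 0.29 at 50 µM (edgeR adjusted p = 0.0799) and -0.11 at 100 µM (edgeR adjusted p = 0.428).

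CYP51A1, the first enzyme of the route, had levels of 174, 236 and 236 CPM with DMSO, of 221, 224 and 207 with 50 µM and of 187, 183 and 281 with 100 µM. The groups overlapped throughout. Its log2 fold change was 0.01 at both doses, with 95% intervals of -0.38 to 0.40 (edgeR adjusted p = 0.97 and 0.971), so changes of up to about that size were not detectable at this spread. Without control replicate 1 and 100 µM replicate 3 CYP51A1 was lower at 100 µM, with a log2 fold change of -0.34 (95% interval -0.47 to -0.22; edgeR adjusted p = 2.95e-05). The value was -0.21, with no call, when 100 µM replicate 3 alone was left out. CYP51A1 shares 2846 bases at 100% identity with the transcript AC000120.2 on the same strand, and 96.6% and 97% with the pseudogenes CYP51A1P1 and CYP51A1P2. It also overlaps CYP51A1-AS1 on the other strand. Whether counting used strand is not stated, so its reads cannot be told apart from those of these partners.

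NSDHL, EBP and SC5D, which act in the middle and late steps, did not pass the test at either dose. NSDHL ranged from 84.0 to 128 CPM with DMSO, 104 to 109.9 with 50 µM and 105 to 125 with 100 µM. EBP held 104 to 157, 139 to 143 and 137 to 162 CPM in the same order, and SC5D 83.1 to 107, 94.2 to 97.8 and 91.0 to 104 CPM. In each of them control replicate 1 was the lowest of the 9 libraries, and all groups overlapped. The log2 fold changes at 50 and 100 µM were -0.03 and 0.09 for NSDHL, 0.07 and 0.16 for EBP, and -0.03 and -0.03 for SC5D, with edgeR adjusted p from 0.409 to 0.884. The 95% intervals ran from -0.34 to 0.40 for NSDHL, -0.23 to 0.46 for EBP and -0.27 to 0.20 for SC5D over both doses.

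**Figure D2:**
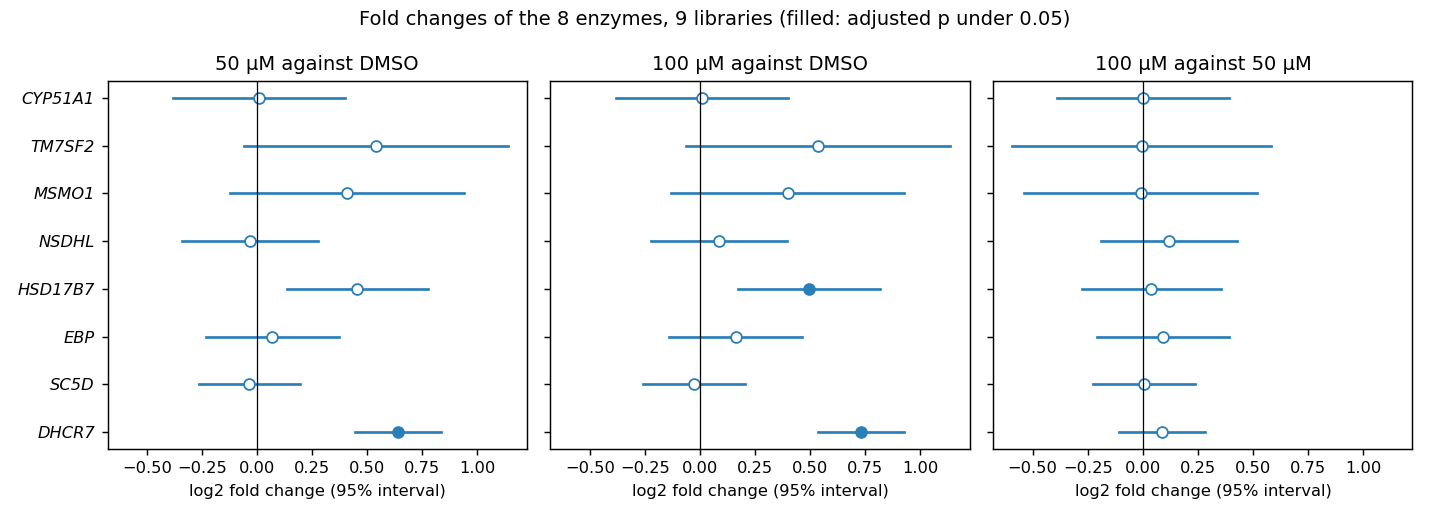
Log2 fold changes of the 8 enzymes with 95% intervals (horizontal lines) in the 3 comparisons, from edgeR with all 9 libraries; filled circles passed an adjusted p of 0.05. DHCR7 is filled at both doses, at 0.64 and 0.73, HSD17B7 at 100 µM, and no enzyme between the doses.

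Between 100 and 50 µM no difference in any of the 8 enzymes passed the test, 0 higher (2.25% of all genes tested) and 0 lower (1.89%), in edgeR, DESeq2 and limma. At an unadjusted edgeR p below 0.05 it was also 0 of 8 (22% of all genes), the lowest being 0.334 for DHCR7. The log2 differences ran from -0.01 (MSMO1) to 0.12 (NSDHL), with a median of 0.02. For DHCR7 the difference was 0.09, with a 95% interval of -0.11 to 0.28, and for HSD17B7 it was 0.04 (-0.28 to 0.36). The intervals were widest for TM7SF2 (-0.59 to 0.58) and MSMO1 (-0.54 to 0.52), so sizeable differences between the doses were not detectable in these genes.

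Leaving out control replicate 1 and 100 µM replicate 3 lowered the standard error of all 8 enzymes in all 3 comparisons and changed several calls. A lower spread follows from picking these libraries for their distance from their groups, and the fit rests on 2, 3 and 2 libraries. Its adjusted p-values are therefore likely too small. At 50 µM DHCR7, TM7SF2, MSMO1 and HSD17B7 were then higher, 4 of 8 (28.5% of all genes), and NSDHL and SC5D lower, 2 of 8 (28.9%). At 100 µM DHCR7, HSD17B7 and TM7SF2 were higher, 3 of 8 (24.2%), and CYP51A1 and SC5D lower, 2 of 8 (24.4%). Between the doses NSDHL and EBP were higher at 100 µM, 2 of 8 (24.6%), and MSMO1, TM7SF2 and CYP51A1 lower, 3 of 8 (22.7%). The falls of SC5D were small, with log2 fold changes of -0.14 (edgeR adjusted p = 0.0337) and -0.18 (edgeR adjusted p = 0.017). MSMO1 had a log2 difference between the doses of -0.41 (edgeR adjusted p = 6.02e-07), and of -0.01 with all 9 libraries. The median of the 8 was 0.12 at 50 µM, 0.04 at 100 µM and -0.06 between the doses.

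**Figure D3:**
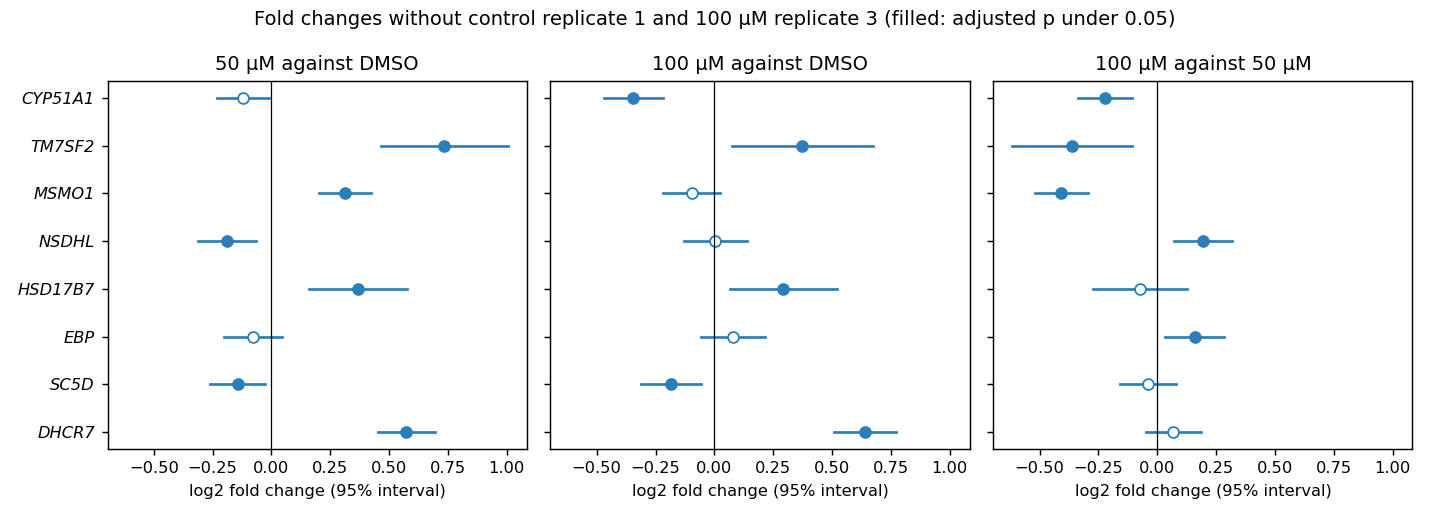
The same log2 fold changes and 95% intervals without control replicate 1 and 100 µM replicate 3, leaving 2, 3 and 2 libraries; filled circles passed an adjusted p of 0.05 in edgeR. DHCR7 lies at 0.57 and 0.64, while CYP51A1 lies at -0.34 at 100 µM and MSMO1 at -0.41 between the doses.

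Per length (TPM), the 8 enzymes fell into 5 that were abundant and 3 that were not, SC5D, HSD17B7 and TM7SF2. In the control the order was EBP (265 ± 48.4 TPM, SD, n = 3), MSMO1 (241 ± 27.1), CYP51A1 (150.5 ± 22.8), NSDHL (149.9 ± 28.6), DHCR7 (136 ± 9.37), SC5D (30.9 ± 3.73), HSD17B7 (16.7 ± 1.93) and TM7SF2 (10.3 ± 2.39). The libraries of EBP and MSMO1 overlapped, as did those of CYP51A1, NSDHL and DHCR7 as neighbours, while the steps from MSMO1 to CYP51A1 and from DHCR7 down to TM7SF2 did not. At both doses DHCR7 came next after MSMO1 and EBP, at 204 ± 8.42 and 215 ± 9.02 TPM, and its libraries no longer overlapped those of CYP51A1 or NSDHL. DHCR7 made up 12.9% to 14.8% of the summed TPM of the 8 with DMSO, 17.5% to 18.5% with 50 µM and 16.7% to 20.0% with 100 µM. At 50 µM the shares of CYP51A1, NSDHL, EBP and SC5D lay below their control range in all 3 libraries, for example 12.1% to 12.6% against 13.9% to 15.9% for NSDHL. Shares add up to the whole, so larger shares of some enzymes lower those of others. Besides DHCR7, MSMO1 lay above its control range at 50 µM (27.1% to 27.3% against 22.6% to 25.1%). The same held for HSD17B7 (1.87% to 2.00% against 1.55% to 1.75%). The summed level of the 8 was 846 to 1087 TPM with DMSO, 1110 to 1160 with 50 µM and 1095 to 1260.5 with 100 µM.

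**Figure D4:**
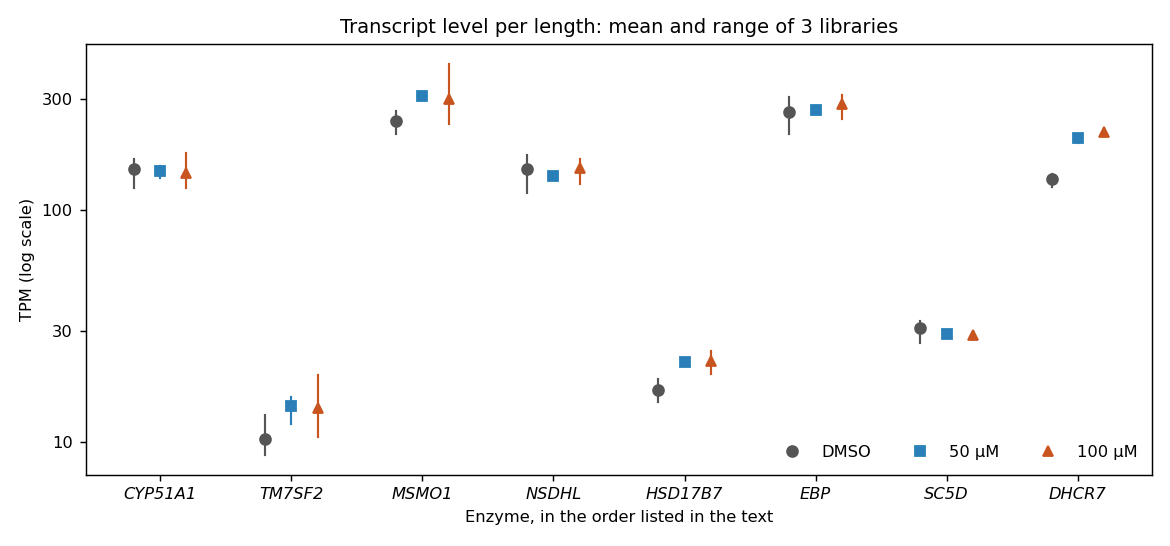
Transcript level per length (TPM, log axis) of the 8 enzymes in the order of the reactions; symbols are group means and vertical lines the range of 3 libraries. HSD17B7, TM7SF2 and SC5D lie at or below 33.3 TPM and the others at or above 118 TPM, and DHCR7 at both doses lies above its control range of 125 to 142 TPM.

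The enzymes were next set beside the other genes of the pathway. Upstream, in the route from acetyl groups through mevalonate to lanosterol, 6 of 11 genes were higher at 50 µM (5.28% of all genes were), with a median log2 fold change of 0.47 (0.0033 over all genes). At 100 µM 6 were higher (10.7% of all genes) and 1, the kinase PMVK, was lower (10.3%), with a median of 0.48. PMVK had -0.24 (edgeR adjusted p = 0.047) and passed in 6 of 18 alternatives. LSS, which closes the ring to make lanosterol, had a log2 fold change of 0.98 at 50 µM and 0.96 at 100 µM (edgeR adjusted p = 0.00082 and 0.00014). FDFT1, squalene synthase, had 0.84 and 0.78, FDPS had 0.81 and 0.73, and MVD had 0.66 and 0.94, all past the edgeR threshold. The 6 upstream genes that were higher ran from 0.40 (MVK) to 0.98 at 50 µM and from 0.34 (MVK) to 0.96 at 100 µM. Over all 11 the values ran from -0.05 and -0.24 (PMVK) upward. DHCR7, TM7SF2, MSMO1 and HSD17B7 lay within the ranges of those 6 at both doses with all libraries. Of these, TM7SF2 and MSMO1 did not pass the test at either dose, and HSD17B7 did not at 50 µM. The MSMO1 value at 100 µM was 0.0027 without 100 µM replicate 3 and -0.097 without control replicate 1 as well. CYP51A1, NSDHL, EBP and SC5D lay below the 6, but within the range of all 11. Without control replicate 1 and 100 µM replicate 3, 9 of 11 upstream genes were higher at 50 µM (28.5% of all genes), with a median of 0.39, and 6 higher (24.2%) and 2 lower (24.4%) at 100 µM, with a median of 0.26. The count past the threshold at 50 µM was 2 when control replicate 2 or 3 or any replicate at 50 µM was left out. The share of all genes past it was then 0.693% to 1.31%, against 11.6% with all libraries. LSS and FDFT1 passed in all 18 alternatives at both doses. At 100 µM the count was 7 with all libraries (21% of all genes). It was 4 without control replicate 2 or 3 (8.62% and 8.12%). The difference between the lists was not tested.

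Of 5 other late sterol genes, LBR and ERG28 among them, 0 passed in edgeR at 50 µM (11.6% of all genes did) and 1 at 100 µM (21%). That was the scaffold protein gene ERG28 (0.36, edgeR adjusted p = 0.0321), which passed in 12 of 18 alternatives. At 50 µM LBR and ERG28 had an unadjusted edgeR p below 0.05 (32.2% of all genes did), and DESeq2 called 1 (20%). Genes for the proteins that carry electrons to the oxygen-using enzymes CYP51A1, MSMO1 and SC5D had calls in both directions at 100 µM. PGRMC1, a haem protein that binds cytochromes of this kind, was higher at both doses (0.36 and 0.40, edgeR adjusted p = 0.0349 and 0.0162), 1 of 7 at 50 µM (5.28% of all genes). It passed in 11 of 18 alternatives at 50 µM and in 15 at 100 µM. At 100 µM 2 of 7 were higher (10.7% of all genes), PGRMC2 by 0.69. The cytochrome genes CYB5A (-0.42, edgeR adjusted p = 0.0144) and CYB5B (-0.47, edgeR adjusted p = 0.0111) were lower, 2 of 7 (10.3%). CYB5B was also lower at 100 than at 50 µM (-0.57, edgeR adjusted p = 0.0186), a call that held in 13 of 18 alternatives. POR, the reductase that serves CYP51A1, had -0.38 and -0.20 and did not pass.

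Among 11 genes of sterol sensing and LDL uptake 4 were higher at 50 µM (5.28% of all genes) and 8 at 100 µM (10.7%), with 0 lower in edgeR. At 50 µM the count was 1 or 2 when control replicate 2 or 3 or any replicate at 50 µM was left out. The share of all genes past the threshold was then 0.693% to 1.31%, against 11.6% with all libraries. Without 100 µM replicate 3 the count was 9 (36.6% of all genes). At 100 µM it was 5 without control replicate 2 or 3 (8.62% and 8.12% of all genes). SREBF1, SREBF2 and INSIG2 passed at 100 µM in all 18 alternatives. At 100 µM SCAP (-0.26) and MBTPS2 (-0.23) had negative values with an unadjusted edgeR p below 0.05, and at 50 µM 0 of the 11 did. SREBF1 had log2 fold changes of 1.22 and 1.18 at 50 and 100 µM, SREBF2 had 0.42 and 0.53, and INSIG2, which retains the sterol sensor, had 1.32 at 100 µM (edgeR adjusted p = 0.00288). INSIG2 was the only gene of this list that also differed between the doses in edgeR (0.92, adjusted p = 0.039; past the threshold in 10 of 18 alternatives). Of 10 tested genes of sterol use and transport 0 passed in edgeR at 50 µM (11.6% of all genes did). There 3 had an unadjusted edgeR p below 0.05 (32.2%) and DESeq2 called 1 (20%). At 100 µM 3 were higher, ABCA1 (1.66), NPC2 (0.44) and NR1H2 (0.24), and 1 was lower (10.7% and 10.3% of all genes). Of these ABCA1 passed in all 18 alternatives, NPC2 in 7 and NR1H2 in 6. The count of 4 was 1 to 6 when 1 library was left out (8.12% to 29.8% of all genes). It was lowest without control replicate 2, 50 µM replicate 1 or 3 or 100 µM replicate 2. ABCA1, which exports cholesterol, was also higher at 100 than at 50 µM (1.05, edgeR adjusted p = 0.0488), a call that held in 6 of 18 alternatives (adjusted p up to 0.189). Without control replicate 1 and 100 µM replicate 3, 8 of the 11 sensing and uptake genes were higher (28.5% of all genes) and 1 lower (28.9%) at 50 µM. At 100 µM 9 were then higher (24.2%) and 1 lower (24.4%).

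**Figure D5:**
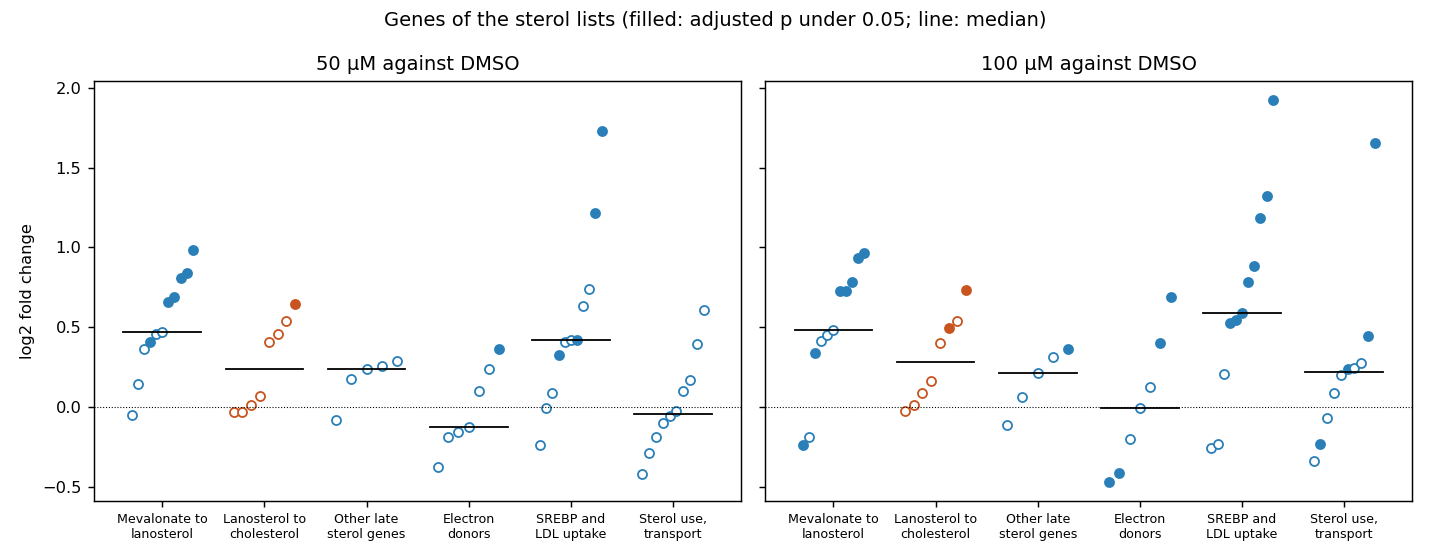
Log2 fold changes against DMSO of each tested gene in 6 sterol gene lists at 50 and 100 µM; filled circles passed an adjusted p of 0.05 in edgeR, lines are list medians, and the 8 lanosterol enzymes are in orange. The median of the upstream list is 0.47 and 0.48 (0.39 and 0.26 without control replicate 1 and 100 µM replicate 3), and that of the 8 enzymes 0.24 and 0.28 (0.12 and 0.04).

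Genes with a profile most like the mean of the 8 enzymes were taken from 10460 others with a mean of at least 5 CPM, by the root mean square distance over the 9 libraries of log2 CPM minus its control mean. The nearest were ENO1 (0.0623), SLC39A1 (0.0649), DHTKD1 (0.0731), TMED3 (0.0742) and CFAP36 (0.0762), against a median of 0.351 over all candidates. A flat profile lay at 0.258 from the mean. The 8 enzymes themselves lay at 0.171 (HSD17B7) to 0.344 (DHCR7). The mean profile ran from -0.18 in control replicate 1 to 0.51 in 100 µM replicate 3, and the likeness was not computed without those libraries.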

How the data were processed

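RNA was sequenced from 9 HCCLM3 samples after selection of poly(A) RNA and treatment of the libraries with duplex-specific nuclease, per the labels' protocols. That nuclease lowers abundant transcripts, so levels compared between genes may be compressed. The submitters' processing notes name RSEM 1.2.12, HISAT2 2.0.4 and Bowtie2 2.2.5, with the build GRCh38.p13, and do not give their roles. The authors deposited expected counts (estimated counts per gene, not normalised), which were rounded here, and TPM, used for levels per length. FPKM and a scaled read-count signal were also deposited and not used. The log2 fold changes, p-values and q-values in the authors' deposited table came from DESeq2, per the file headers.

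Genes passing edgeR's filterByExpr (minimum count 10, total 15, share 0.7) were scaled by TMM and tested with edgeR 4.0.16 (quasi-likelihood, robust, two-sided, R 4.3.3) in 1 fit of all 9 libraries, with Benjamini-Hochberg adjustment and a threshold of 0.05. CPM are TMM-scaled, standard errors were derived from F, and totals are in the first part of the results. Alternatives were DESeq2 1.42.0, limma 3.58.1 on log2(TPM + 1) or log2(TPM + 0.1), other scaling and filters, a replicate block and leaving libraries out. Promoter windows are RefSeq's (all 8 genes matched by symbol) and exons GENCODE's. Near-identical transcripts were found with blastn 2.17.0 at 95% identity or more over at least 100 bases and 10% of the transcript. The authors' strand column was not used, since it puts CYP51A1 and DHCR7 on the plus strand. Proteins were not compared.

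The 8 genes, the other lists, the alternatives and the rule for naming other genes (up to 3 called genes per list and comparison with the largest changes, and the 5 nearest profiles) were chosen with earlier results of these data known. HSD17B7P2, AC000120.2, VPS51, the CYP51A1 relatives, LBR, POR, SCAP and MBTPS2 fall outside that rule and are named for their link to a gene described. A few genes that this rule takes are not reported here.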

Additional observations from a re-analysis of the deposited data

How the results depend on the processing

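Of 18 alternatives, DHCR7 passed the threshold in all at both doses, with adjusted p up to 0.0443 at 50 µM and 0.013 at 100 µM, and HSD17B7 passed in 11 at 100 µM. At 50 µM the count of enzymes past the threshold, 1 with all libraries, was 2 with DESeq2, 4 in a fit of the 2 groups alone and 6 without control replicate 1 and 100 µM replicate 3 (both libraries). At 100 µM, 2 became 1 in the fit of 2 groups and 5 without both libraries, and between the doses 0 became 5 without both. The share of all genes past the threshold moved as well, at 50 µM from 11.6% to 20% with DESeq2, 33.9% in the fit of 2 groups and 57.4% without both libraries, at 100 µM from 21% to 8.08% in the fit of 2 groups and 48.6% without both, and between the doses from 4.15% to 47.3% without both. Leaving out 1 library at a time gave 1 to 4 at 50 µM, 1 to 2 at 100 µM and 0 to 1 between the doses. The highest at 50 µM and between the doses came without 100 µM replicate 3. The share of all genes ran from 0.693% to 36.6%, 8.12% to 29.8% and 0.331% to 27.5% in the same order. Each share was highest without 100 µM replicate 3.

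Some directions turned. CYP51A1 between the doses was 0.0020 with DESeq2 size factors, 0.0020 with DESeq2 and 0.0058 in the fit of 2 groups, where TM7SF2 was 0.0025. Without both libraries CYP51A1 was -0.12 at 50 µM and -0.34 at 100 µM, EBP -0.078 at 50 µM, MSMO1 -0.097 at 100 µM, and HSD17B7 -0.074 and SC5D -0.040 between the doses. In limma on TPM CYP51A1 was -0.031 at 50 µM and -0.072 (pseudocount 1) or -0.073 (0.1) at 100 µM, and SC5D between the doses was -0.0052 or -0.0054. Leaving out 1 library at a time gave, at 50 µM, -0.12 to 0.088 for CYP51A1, -0.19 to 0.10 for NSDHL, -0.074 to 0.21 for EBP and -0.14 to 0.032 for SC5D. At 100 µM it gave -0.21 to 0.12 for CYP51A1, -0.063 to 0.22 for NSDHL and -0.13 to 0.040 for SC5D. Between the doses it gave -0.23 to 0.11 for CYP51A1, -0.37 to 0.19 for TM7SF2, -0.42 to 0.16 for MSMO1, -0.084 to 0.15 for HSD17B7 and -0.050 to 0.047 for SC5D. The causes were not tested.

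The calls over all genes numbered 678 up and 810 down at 50 µM, 1370 and 1322 at 100 µM, and 289 and 243 between the doses. DESeq2 gave 1208 and 1359 at 50 µM and 709 and 673 between the doses, and the fits of 2 groups gave 1996 and 2273, 587 and 437, and 180 and 71. Without both libraries the counts were 3677 and 3721, 3125 and 3147, and 3176 and 2929. Leaving out 1 library gave 47 to 2382 up and 43 to 2357 down at 50 µM, 598 to 1966 and 457 to 1890 at 100 µM, and 31 to 1823 and 12 to 1738 between the doses. Limma without a filter gave 285 and 463, 839 and 1305, and 140 and 93. With the replicate number as a block the counts were 199 and 228, 893 and 779, and 81 and 28, and those of the 8 enzymes 1, 2 and 0, as without it. Same-numbered libraries correlated at -0.46 to 0.28 in their deviations from the group mean, and 0 of 9 correlated best with their own number. Control replicate 1 and 100 µM replicate 3 enter those group means, so the check cannot show or exclude a pairing. TM7SF2 and MSMO1 had the widest intervals of the 8. With the block the sensing and uptake list had 2 genes past the threshold at 50 µM (3.33% of all genes). The list of sterol use and transport had 1 at 100 µM (13%).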
